A study of Mus musculus with 6 samples.

Results

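Heat shock chaperone transcripts were measured in the irradiated mouse cortex with and without Lgmn, the gene that encodes asparagine endopeptidase (AEP, or legumain), a lysosomal protease. The 10 genes described here are Hspa1a, Hspa1b, Hspa2, Hspa8, Hsph1, Dnajb1, Hspb1, Hsp90aa1, Hspd1 and Bag3. They were taken by gene name from the 51826 genes of the deposited tables, and all 10 were among the 18345 genes with enough counts to be tested. The members were chosen by the kind of gene and with their fold changes in this genotype comparison already known. Their values are therefore a description, and where calls on them are counted below, these are no test. The question was whether the whole group of chaperones was higher in one genotype or Hspa1a and Hspa1b alone.

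The libraries came from cortices of male BALB/c mice, 6 to 8 weeks old, collected on day 3 after a single 10 Gy dose of X-ray to the whole brain. There were 3 libraries from wildtype mice (Lgmn+/+-IR) and 3 from Lgmn knockout mice (Lgmn-/--IR), each from a different mouse. Non-irradiated libraries were not analysed here. Every difference below therefore compares genotypes that were both irradiated, and no value shows the response to irradiation itself. In the methods of the study, the knockout goes back to a single embryonic stem cell clone and was made by crossing mice with a floxed Lgmn allele to Cre mice, and the promoter that drives Cre is not named. Total counts ranged from 41874462 to 46829441 per library. Levels are given as CPM (counts scaled to a common library size after TMM normalization in edgeR), which compare libraries, or as the deposited FPKM, which also allow for transcript length and so compare genes.

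Lgmn itself was at 129 ± 1.66 CPM in wildtype libraries and 82.5 ± 11.6 in knockout libraries (mean ± SD, n = 3 each), with every knockout library below every wildtype library. Its log2 fold change of -0.64 had a standard error of 0.12 (adjusted p value 0.0315 in edgeR's quasi-likelihood test). A count over the entire gene cannot tell which part of it was deleted.

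Heat shock proteins are molecular chaperones: they bind unfolded or aggregating proteins and help them fold, or hand them over for degradation. HSP70 proteins do this with ATP, HSP40 (DnaJ) partners deliver the substrate, nucleotide exchange factors reset the cycle, HSP90 finishes the folding of many kinases and receptors, and small heat shock proteins hold unfolded chains. When unfolded proteins build up, heat shock factor 1 (HSF1) is released from chaperones, forms trimers and binds heat shock elements, which are inverted repeats of GAA, near the start of these genes. Neurons keep a high level of the constitutive chaperones, and induction of Hspa1a and Hspa1b in the brain is known mostly from glial and vascular cells.

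The promoters of Hspa1a and Hspa1b are shown because the genes are near-copies of each other. In RefSeq (GRCm38.p6), the 300 bases from 250 before to 50 after the start differ at 4 positions between both genes, 3 of them before the start. The 250 bases before the start are given 5′ to 3′ on the gene's strand (minus), for Hspa1a at chr17:34972157-34972406 and for Hspa1b at chr17:34959239-34959488. Capitals mark a pair of facing heat shock half-sites, GAANNTTC or TTCNNGAA, both of which read the same on either strand and can overlap each other.
Hspa1a promoter: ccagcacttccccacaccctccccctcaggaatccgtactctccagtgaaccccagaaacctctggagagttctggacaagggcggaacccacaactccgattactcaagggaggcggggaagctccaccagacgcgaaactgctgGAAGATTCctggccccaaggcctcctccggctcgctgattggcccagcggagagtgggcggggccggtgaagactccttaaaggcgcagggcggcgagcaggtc
Hspa1b promoter: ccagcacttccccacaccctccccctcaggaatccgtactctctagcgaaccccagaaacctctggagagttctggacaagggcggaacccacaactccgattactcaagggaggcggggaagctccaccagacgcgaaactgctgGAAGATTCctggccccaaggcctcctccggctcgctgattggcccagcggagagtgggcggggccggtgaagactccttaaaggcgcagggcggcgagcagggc
The match begins 104 bases before the start in both genes.

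Among the other members, stretches with matches are shown for Hspb1 (plus strand, chr5:135887772-135887859), Hsph1 (minus strand, chr5:149636337-149636399) and Hspd1 (minus strand, chr1:55088029-55088106). Each holds a match before a RefSeq start, and their transcript levels differ in how far they were from wildtype. For Hspd1, that start and the stretch lie inside the gene, and the window of its outer start held 0 matches. The Hsph1 match also lies inside the gene as positioned by GENCODE, which places the start further upstream.
Hspb1 promoter: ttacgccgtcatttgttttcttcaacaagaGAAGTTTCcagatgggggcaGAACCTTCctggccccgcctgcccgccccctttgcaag
Hsph1 promoter: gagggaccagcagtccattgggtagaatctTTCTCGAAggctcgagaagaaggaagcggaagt
Hspd1 promoter: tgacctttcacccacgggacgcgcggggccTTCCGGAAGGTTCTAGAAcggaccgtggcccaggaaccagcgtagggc
RefSeq windows were at hand for 8 of the 10 members. A match lay somewhere in the window of 6 of them (Hspa1a, Hspa1b, Hsph1, Hspb1, Hspd1 and Bag3), and before the start in 5, since that of Bag3 began 42 bases after it. The windows of Hspa2 and Dnajb1 held none. A gene with several windows was counted when any of them held a match. Counted by gene in the same way, 17% of 27025 genes held a match in a window and 14.5% held one before the start (15.1% and 12.8% of all 32851 windows). A match says only that these letters are present.

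Hspa1a and Hspa1b encode the stress-inducible cytosolic HSP70 and were the members that differed most between genotypes. They lie on the minus strand of chromosome 17, Hspa1a at chr17:34969190-34972156 and Hspa1b at chr17:34956436-34959238, with 9951 bases between them. Hspa1a had 527, 597 and 605 counts in Lgmn+/+-IR replicates 1, 2 and 3 and 1140, 2778 and 2049 in Lgmn-/--IR replicates 1, 2 and 3, or 12.4, 13.9 and 13.3 against 25.7, 59.8 and 46.7 CPM. The wildtype libraries were close together, the knockout libraries were all above them, and the first knockout library was the lowest of its group. The mean level was 3.34-fold higher in knockout libraries (log2 fold change 1.74, standard error 0.29).

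Hspa1b had 10.1, 11.7 and 10.9 CPM in wildtype libraries and 46.1, 93.0 and 85.6 CPM in knockout libraries. The order of the libraries was the same as for Hspa1a within the knockout group, and the genotypes did not overlap. The mean level was 6.87-fold higher (log2 fold change 2.78, standard error 0.26), the largest difference among the 10 genes.

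The transcripts of both genes share 2201 aligned bases at 99.2% identity, with 12 mismatches, and neither the read counter nor its handling of shared reads is stated in the sources used here. The sum of the pair does not depend on how shared reads were split, but it would be affected if such reads were left out. It was 22.5, 25.7 and 24.2 CPM in wildtype libraries and 71.7, 153 and 132 CPM in knockout libraries. All knockout libraries stood above all wildtype libraries, with a mean of 119 ± 42.2 against 24.1 ± 1.60 CPM (4.93-fold, log2 2.30). The FPKM of the pair gave 4.85-fold. When 1 library at a time was left out, the log2 ratio of the sum lay between 2.08 and 2.56, the lowest without Lgmn-/--IR replicate 2 and the highest without Lgmn-/--IR replicate 1.

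Within the pair, Hspa1b made up a larger share of the counts in the knockout. Its share was 45.0%, 45.7% and 45.0% in wildtype libraries, where the 95% Wilson intervals together ran from 41.9% to 48.6%. It was 64.2%, 60.8% and 64.7% in knockout libraries, with intervals from 59.7% to 65.9%. These intervals cover counting error only, and the share depends on the unstated rule for reads that match both genes. In FPKM, the share was 46.4% to 47.1% in wildtype libraries and 62.2% to 66.0% in knockout libraries. Gm20481, which overlaps Hspa1a on the other strand, had at most 2 counts in any library.

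**Figure D1:**
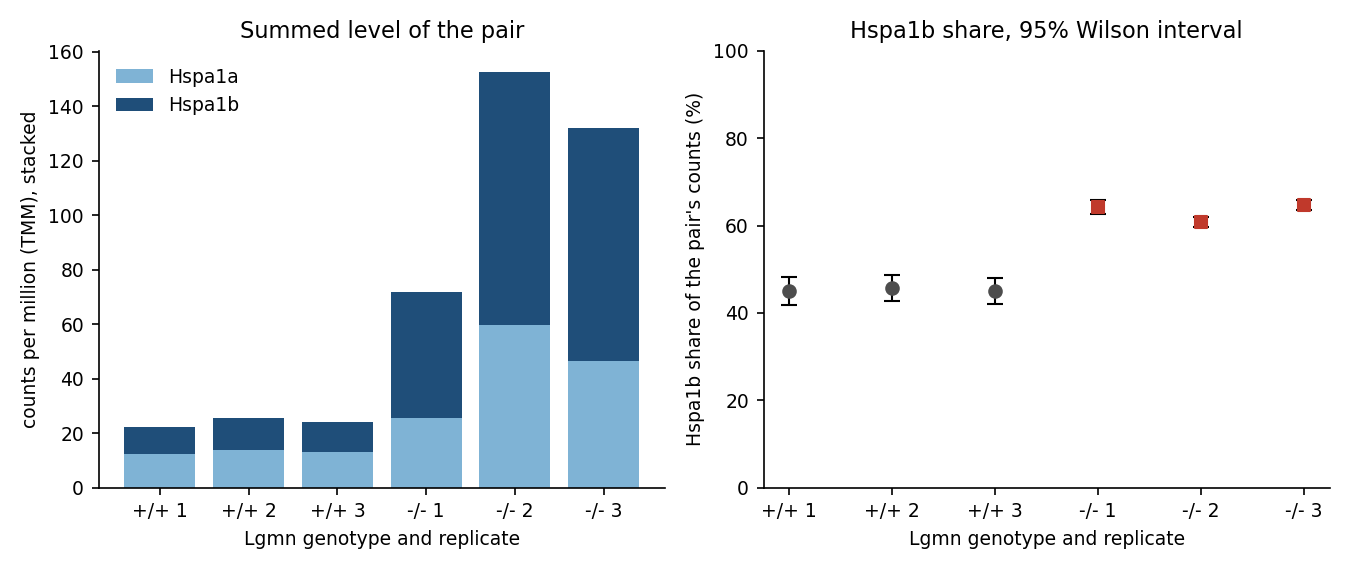
Left, summed level of Hspa1a (light) and Hspa1b (dark) in CPM for each of the 6 libraries, stacked from 0. Right, the percentage of the pair's counts that fell on Hspa1b, with 95% Wilson intervals. The sum lay between 22.5 and 25.7 in wildtype and between 71.7 and 153 in knockout libraries, and the Hspa1b share was near 45% in wildtype and above 60% in knockout libraries.

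The other HSP70 members were also higher in the knockout, by less. Hspa2, an HSP70 that is abundant in testis and also present in brain (chr12:76404176-76406938), had 34.5, 42.6 and 44.4 CPM in wildtype libraries and 62.5, 60.7 and 70.4 CPM in knockout libraries. The genotypes did not overlap and the knockout mean was 1.59-fold higher (log2 fold change 0.67, standard error 0.13). Hspa8, the constitutive HSP70 that also strips clathrin from vesicles (chr9:40800984-40810087), had 994, 956 and 1032 CPM in wildtype libraries and 1269, 1288 and 1613 CPM in knockout libraries. The third knockout library was the highest, and the lowest knockout library was still above all wildtype libraries. The mean was 1.40-fold higher (log2 fold change 0.48, standard error 0.11). Hspa8 has near-identical processed copies in the genome, and 5 of them had rows in the count table with between 56.1% and 76.0% as many counts as Hspa8 itself, so its level is uncertain. With these copies added to Hspa8, the log2 fold change was 0.41.

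The partners of HSP70 were higher as well. Hsph1, the HSP110 nucleotide exchange factor (chr5:149614287-149636376), had 213, 210 and 235 CPM in wildtype libraries and 309, 333 and 376 CPM in knockout libraries. Each knockout library was above each wildtype library, and the mean was 1.55-fold higher (log2 fold change 0.63, standard error 0.10, the smallest error relative to its size among the 8 members beside the pair). Dnajb1, the HSP40 that brings substrates to stress-inducible HSP70 (chr8:83608193-83612653), had 69.2, 80.2 and 75.4 CPM in wildtype libraries. In Lgmn-/--IR it had 95.2, 145 and 143 CPM. As for the Hspa1 pair, the first knockout library was the lowest of its group but above wildtype, and the mean was 1.71-fold higher (log2 fold change 0.77, standard error 0.17). Bag3, a co-chaperone that links HSP70 and small heat shock proteins to autophagy (chr7:128523616-128546981), had 8.91, 9.79 and 8.77 CPM in wildtype libraries and 14.3, 12.7 and 17.7 CPM in knockout libraries. The genotypes did not overlap, and the mean was 1.63-fold higher (log2 fold change 0.70, standard error 0.15).

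Hspb1, the small heat shock protein HSP25 (chr5:135887919-135889563), differed more than any member outside the Hspa1 pair. It had 168, 286 and 299 counts in wildtype libraries and 552, 574 and 770 counts in knockout libraries, or 3.94, 6.68 and 6.57 against 12.4, 12.4 and 17.5 CPM. All knockout libraries were above all wildtype libraries, and the first wildtype library was the lowest. The mean was 2.46-fold higher (log2 fold change 1.30, standard error 0.25). Its processed copy Hsp25-ps1 held 4.29% to 13.2% as many counts, and with that copy added the log2 fold change was 1.26.

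In contrast, Hsp90aa1 and Hspd1 overlapped between genotypes. Hsp90aa1, the inducible cytosolic HSP90 (chr12:110690605-110702728), had 534, 757 and 784 CPM in wildtype libraries and 808, 633 and 839 CPM in knockout libraries. The lowest library was the first wildtype one, and the second knockout library lay below the other 2 wildtype libraries. The log2 fold change of 0.14 was smaller than its standard error of 0.17, and without Lgmn+/+-IR replicate 1 it was -0.01. Hspd1, the mitochondrial chaperonin HSP60 (chr1:55077835-55088243), had 123, 141 and 149 CPM in wildtype libraries and 154, 145 and 156 CPM in knockout libraries. Only the second knockout library fell inside the wildtype range, and the log2 fold change was 0.14 (standard error 0.10). Hspd1 shares its promoter stretch with Hspe1, which encodes its partner HSP10 and lies on the other strand, where its window held the same matches.

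**Figure D2:**
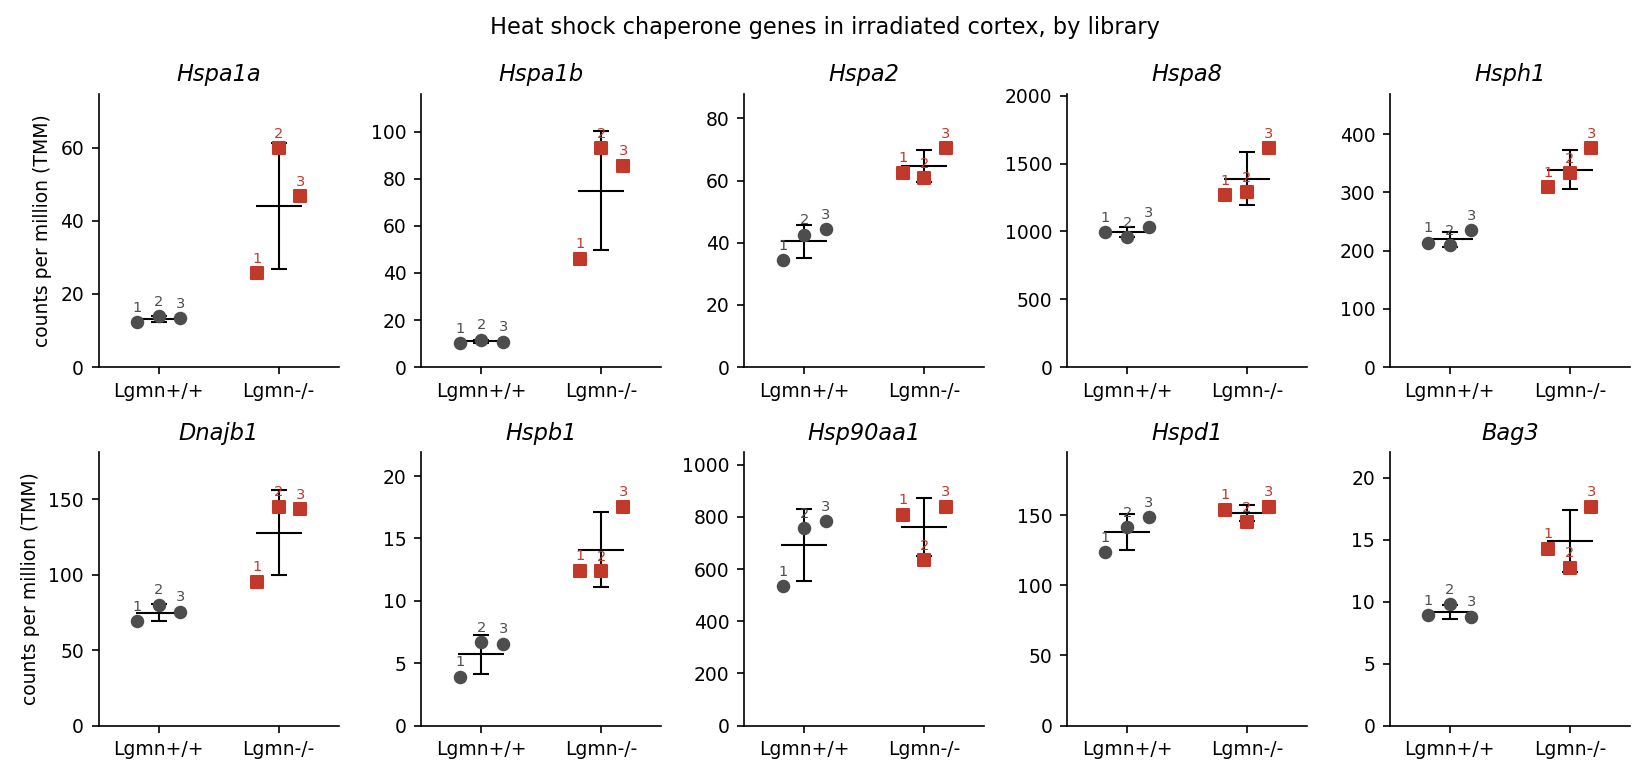
CPM (TMM-normalized, axes from 0) of the 10 genes in the 3 wildtype (grey circles) and 3 knockout (red squares) libraries, numbered by replicate, with mean and SD in black. In 8 panels all knockout libraries lie above all wildtype libraries, and in those of Hsp90aa1 and Hspd1 the genotypes overlap.

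Set side by side, all 10 fold changes were positive, and in 8 of 10 genes every knockout library was above every wildtype library, which also held for 12.4% of all genes tested. No member was lower without overlap. The median log2 fold change was 0.69 over the 10 genes and 0.65 over the 8 outside the pair, against -0.01 over all genes tested. Among the 10 genes in these libraries, the difference was not limited to Hspa1a and Hspa1b, but it was unequal. The pair was at 3.34-fold and 6.87-fold and Hspb1 at 2.46-fold. Hspa2, Hspa8, Hsph1, Dnajb1 and Bag3 lay between 1.40-fold and 1.71-fold, and Hsp90aa1 and Hspd1 were at 1.10-fold. This describes the listed genes and is no test, because the list was made with these values known.

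In the fit across all genes, 3 members (Hspa1a, Hspa1b and Hspb1) passed both thresholds for DEGs (adjusted p value below 0.05 with a log2 fold change beyond 1 in either direction), against 2.06% of all genes tested and 0.959% in the upward direction. With the adjusted p value alone, Hspa2 and Hsph1 joined them, for 5 of 10 members, against 3.33% of all genes and 1.65% in the upward direction. Nothing is read from these shares, because the same comparison had been seen when the list was made. Hspa1b kept an adjusted p value under 0.05 in all 18 alternatives run, but Hspa1a in 10 of 18. Hspa1a lost the call without Lgmn+/+-IR replicate 1, 2 or 3, without Lgmn-/--IR replicate 3, with the replicate block and on log2(FPKM) with each pseudocount. These fits reuse the libraries in which the difference was first seen, so a kept call adds no support. The calls of the 8 members outside the pair were also close to the threshold: DESeq2 gave 6 of them an adjusted p value under 0.05. Without Lgmn+/+-IR replicate 1, 2 or 3, or without Lgmn-/--IR replicate 3, edgeR gave 0, without Lgmn-/--IR replicate 1 it gave 2 (Hsph1 and Dnajb1) and without Lgmn-/--IR replicate 2 it gave 1 (Hsph1), and in none of these 6 fits did Hspb1 pass both thresholds.

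The levels of the genes relative to each other shifted as well. In Lgmn+/+-IR, the FPKM ran from Hspa8 (396 ± 19.3) and Hsp90aa1 (216 ± 53.8) through Hsph1 (64.4 ± 3.59), Hspd1 (60.7 ± 5.62), Dnajb1 (22.4 ± 1.83) and Hspa2 (14.3 ± 1.86) to Hspb1 (5.66 ± 1.55), Hspa1a (3.97 ± 0.27), Hspa1b (3.47 ± 0.28) and Bag3 (3.19 ± 0.23). The wildtype libraries of Hsph1 and Hspd1 overlapped, as did each neighbouring pair from Hspb1 down to Bag3. In Lgmn-/--IR, Hspa1b (23.2 ± 8.06 FPKM) stood next to Hspa2 (22.1 ± 0.70), within its spread, and Hspa1a (12.9 ± 5.38) stood next to Hspb1 (13.5 ± 2.17), while Hspa8 (563 ± 29.9) and Hsp90aa1 (241 ± 15.5) remained the most abundant by mean. The pair made up 0.862% to 0.993% of the members' summed FPKM in wildtype libraries and 2.12% to 4.47% in knockout libraries. Most of the summed FPKM of these 10 genes thus came from members outside the pair in both genotypes.

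Other chaperone genes were grouped into 9 classes of 78 genes, all of them tested. Of these 78 genes, 26 had every knockout library above every wildtype library, 3 had every knockout library below, and 49 overlapped. Over all genes tested, 12.4% were above and 13.3% below. No comparison with the 10 members is drawn, because those were listed with their values known. The median log2 fold change was 0.08. By edgeR's quasi-likelihood test, 5 genes rose, among them Dnajb5, Chordc1, P4ha1 and Slc5a3, and 1 fell (Hspb3), against 1.65% and 1.68% of all genes tested.

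Of the 13 HSP90 and co-chaperone genes, 8 were higher without overlap and none lower, against 12.4% and 13.3% of all genes tested. Their median log2 fold change was 0.24. Chordc1, an HSP90 co-chaperone, rose from 35.9 ± 1.96 to 53.0 ± 2.64 CPM (log2 fold change 0.56, adjusted p value 0.0231). With 1 library left out, the Chordc1 call was kept only without Lgmn-/--IR replicate 2. Stip1, which couples HSP70 to HSP90, had 185 ± 9.55 and 289 ± 51.3 CPM (log2 fold change 0.64, adjusted p value 0.0538), and Hsp90ab1, the constitutive HSP90, had 1559 ± 76.3 and 1936 ± 206 CPM (log2 fold change 0.31, adjusted p value 0.169). Neither passed the test. In the 11 cytosolic HSP40 genes, 4 were higher without overlap, against the same 12.4% of all genes tested. Dnajb5 rose from 165 ± 19.2 to 253 ± 29.8 CPM (log2 fold change 0.62, adjusted p value 0.0474), a call that was lost with any 1 library left out, and Dnaja1, a general HSP40, had 202 ± 9.58 and 236 ± 8.96 CPM (adjusted p value 0.207).

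The small heat shock proteins went in both directions. Among 7 genes beside Hspb1, 4 were higher without overlap and 1 was lower, against 12.4% and 13.3% of all genes tested. Cryab, the abundant αB-crystallin of glia, had 44.4 ± 3.57 CPM in wildtype libraries and 65.2 ± 13.9 in knockout libraries (log2 fold change 0.55, adjusted p value 0.139), which did not pass. Hspb3, a small heat shock protein known from muscle, fell from 2.49 ± 0.94 to 0.61 ± 0.18 CPM (log2 fold change -2.03, adjusted p value 0.0293) and was the only one of the 78 genes past both thresholds, which it did not pass with any 1 library left out. In the 8 genes of the CCT chaperonin, which folds actin and tubulin and is mostly constitutive, 1 gene (Tcp1) was higher without overlap and the median log2 fold change was 0.04. Of the 10 mitochondrial chaperones, 1 was higher (Hspe1, 43.8 ± 2.59 and 61.3 ± 5.42 CPM, log2 fold change 0.49, adjusted p value 0.0538) and 1 lower (Hscb) without overlap. The counts of the CCT and mitochondrial classes are near the shares over all genes and are no result about these classes. Hspa9, the mitochondrial HSP70, had 216 CPM and 213 CPM, so that within the mitochondrial group the values of HSP10 and of the HSP70 lay apart.

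Of the factors, Hsf1 was higher in every knockout library and Hsf2 overlapped. Hsf1 had 25.5 ± 3.62 CPM in wildtype libraries and 36.1 ± 4.46 CPM in knockout libraries, without overlap (log2 fold change 0.50, adjusted p value 0.117, not past the test). Hsf2 had 21.1 and 20.9 CPM (log2 fold change -0.01), and 4 of the 5 genes in this class overlapped. A transcript level of Hsf1 does not show the activity of the protein. In the class of 7 other HSP70 and HSP110 genes, Hspa4, an exchange factor like Hsph1, had 217 ± 8.78 and 250 ± 12.4 CPM (adjusted p value 0.251), 2 genes were higher without overlap and 1, Hspa1l, was lower. In the class of 6 BAG proteins and exchange factors, 2 were higher without overlap and the median log2 fold change was 0.03. Over all genes tested, 12.4% were higher and 13.3% lower without overlap.

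Among 11 other genes linked to HSF1, 3 rose, P4ha1 and Slc5a3 among them, against 1.65% of all genes tested. P4ha1, a collagen prolyl hydroxylase subunit, rose from 36.5 ± 4.24 to 66.7 ± 1.75 CPM (log2 fold change 0.87, adjusted p value 0.0084), and Slc5a3, a myo-inositol transporter of the osmotic response, rose from 21.5 ± 2.60 to 36.5 ± 2.77 CPM (log2 fold change 0.76, adjusted p value 0.0219). Neither is itself a chaperone. With 1 library left out, the Slc5a3 call was kept only without Lgmn-/--IR replicate 1. Of the 78 genes, the number with an adjusted p value under 0.05 was 1, 2 and 1 without Lgmn+/+-IR replicates 1, 2 and 3 and 4, 5 and 1 without Lgmn-/--IR replicates 1, 2 and 3, and P4ha1 was among them each time.

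**Figure D3:**
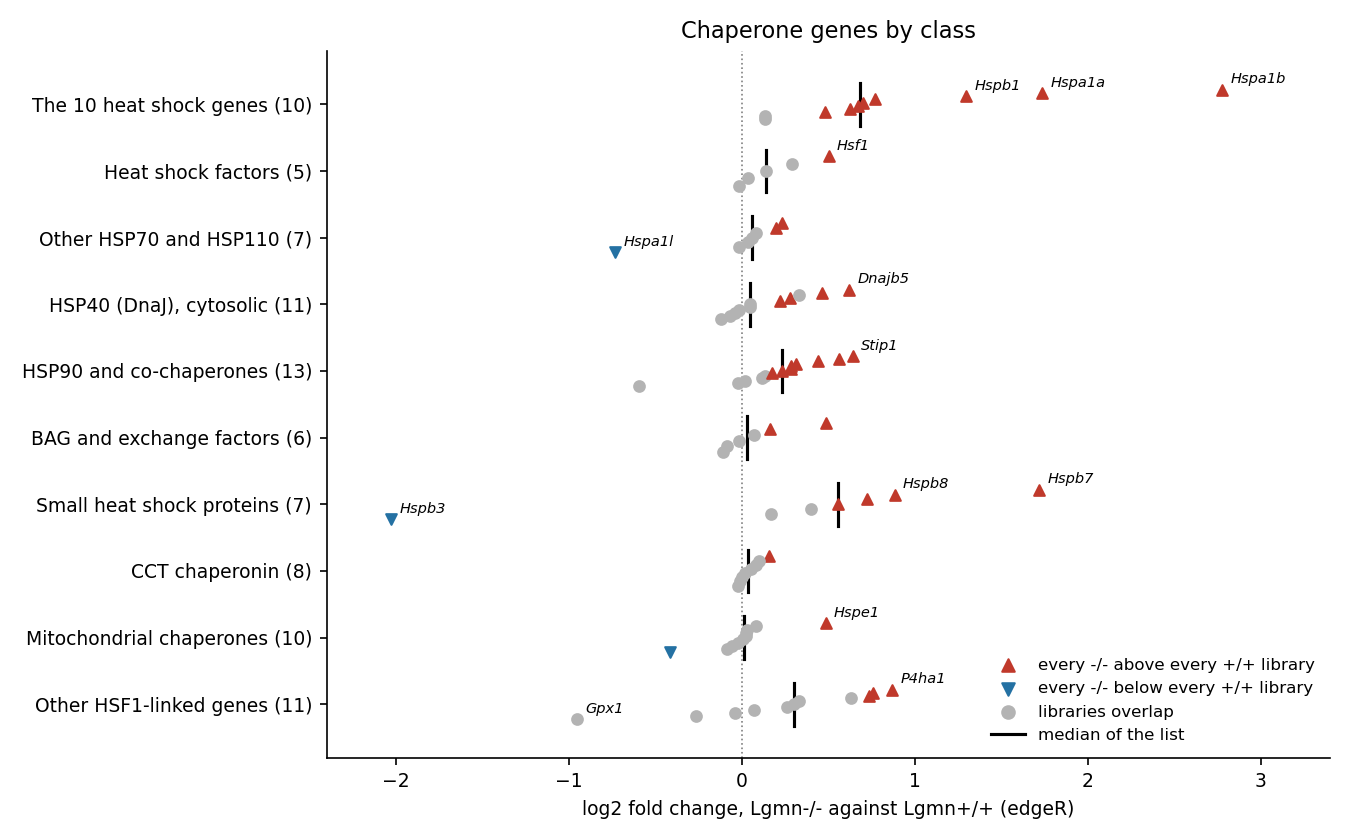
Log2 fold change of each gene, Lgmn-/--IR against Lgmn+/+-IR, for the 10 members (top row) and 9 classes of other chaperone and HSF1-linked genes, with the number of genes in parentheses. Upward red triangles mark genes with every knockout library above every wildtype library, downward blue triangles the reverse, grey points overlap, and black lines the medians. The members' median is 0.69 and those of the CCT and mitochondrial classes are 0.04 and 0.01.

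Of 20 genes tested around the Hspa1 pair on chromosome 17, 3 were higher without overlap (Csnk2b, Bag6 and Ehmt2) and 3 lower (Hspa1l, Sapcd1 and Msh5), against 12.4% above and 13.3% below over all genes tested, so neither count is a result about these neighbours, and the median log2 fold change was -0.11. Hspa1l, an HSP70 gene expressed mainly in testis, starts 546 bases from the start of Hspa1a and is read in the opposite direction. It had 432, 307 and 323 counts in wildtype libraries and 201, 253 and 206 in knockout libraries, lower in every knockout library (log2 fold change -0.73, adjusted p value 0.0899, not past the test), while Hspa1a beside it was higher in every one. Msh5, a meiotic mismatch repair homologue, fell from 47, 53 and 40 counts to 13, 11 and 16 (log2 fold change -1.84, adjusted p value 0.0233), the only neighbour past both thresholds, and with any 1 of the 6 libraries left out it no longer passed.

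**Figure D4:**
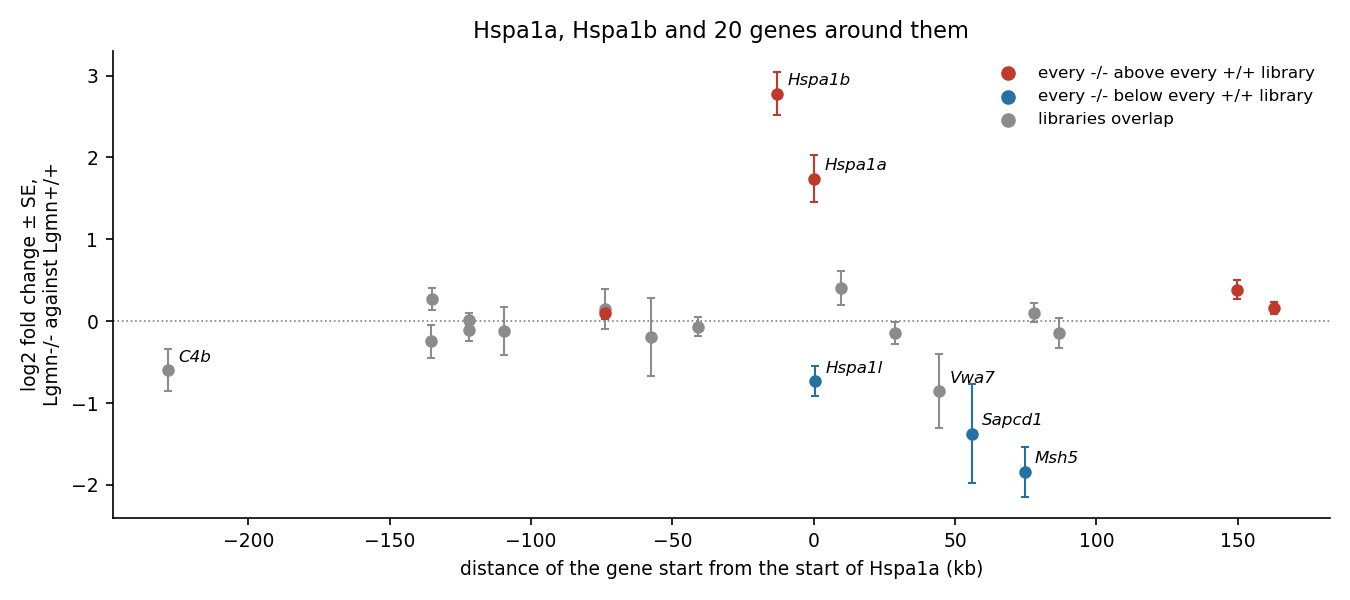
Log2 fold change with standard error of Hspa1a, Hspa1b and 20 tested genes around them, against the distance of each gene's start from that of Hspa1a in kb. Hspa1b and Hspa1a stand at 2.78 and 1.74, Hspa1l right beside them at -0.73, and Msh5 is lowest at -1.84.

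The profile of the summed pair across the 6 libraries was compared with 18085 other genes, as the root mean square difference of log2 CPM after centring on the wildtype mean. The nearest were Phf24 (0.163), Fggy (0.235), Arid3c (0.292), Rsph6a (0.349) and Gm11273 (0.362). Phf24, a zinc finger gene expressed in neurons, had 67.5, 60.0 and 69.6 CPM in wildtype libraries and 182, 347 and 380 CPM in knockout libraries, so its first knockout library was also the lowest of its group. Arid3c and Rsph6a had at most 38 counts in a library. No chaperone member was among the 5 nearest: Hspb1 came at rank 104, Dnajb1 at 351, Hspa2 at 527, Bag3 at 528, Hsph1 at 591 and Hspa8 at 1083, and Hspd1 and Hsp90aa1 at 4884 and 5451.

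Other measures moved with genotype beside these chaperones. The summed level of blood marker genes was 7.59 to 15.8 CPM in wildtype libraries and 2273, 1729 and 234 CPM in Lgmn-/--IR replicates 1, 2 and 3. The third knockout library had the least blood signal of its group, still above wildtype. In CPM, it had the highest level of Hspa2, Hspa8, Hsph1, Hspb1, Hsp90aa1, Hspd1 and Bag3. Hspa1a, Hspa1b and Dnajb1 were highest in the second knockout library (59.8, 93.0 and 145 CPM). In cortical tissue, fewer cells of a type and less RNA per cell cannot be told apart. Oligodendrocyte markers summed to 3076 to 3737 CPM in wildtype libraries and 2023 to 2146 in knockout libraries. Of these 5 genes, 4 were called lower by edgeR, against 1.68% of all genes tested. Astrocyte markers summed to 845 to 968 and 1077 to 1218 CPM. Of these 5 genes, 4 were higher without overlap, against 12.4% of all genes tested, and 1 was called higher by edgeR, against 1.65%. Microglial markers summed to 179 to 204 and 150 to 165 CPM. Of these 6 genes, 2 were lower without overlap, against 13.3% of all genes tested, and 4 overlapped. In edgeR, 0 of them were called, and 1 had a positive log2 fold change. The part of these differences in the chaperone values was not tested.

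Cortical neuron markers were present in all libraries (4165 to 6287 CPM), but striatal markers split the libraries across genotypes, at 284 to 363 CPM in Lgmn+/+-IR replicate 1 and Lgmn-/--IR replicates 2 and 3 and at 892 to 1457 CPM in the other 3. Each set has 1 library of a genotype, so its ratios are values with no test. In the low set, the log2 ratio was 2.10 for Hspa1a, 3.14 for Hspa1b, 1.06 for Dnajb1 and 1.90 for Hspb1. In the high set, it was 0.91, 2.03, 0.29 and 0.91. For the other members, the low and high sets gave 0.75 and 0.62 (Bag3), 0.54 and 0.35 (Hspa8) and 0.73 and 0.48 (Hsph1). They gave 0.92 and 0.52 for Hspa2, 0.45 and 0.07 for Hsp90aa1 and 0.28 and 0.09 for Hspd1. All 10 log2 ratios were positive in both sets. The part of the striatal level in the chaperone values was not tested with these ratios. Immediate early genes, which follow recent neuronal activity and handling, summed to 1528 to 1917 CPM in wildtype libraries and 1112 to 2310 CPM in knockout libraries and overlapped.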

How the data were processed

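Polyadenylated RNA from cortex was sequenced. Reads had been filtered (Trimmomatic 0.36) and aligned to GRCm38 (HISAT2) by the authors. The raw counts per gene were deposited without normalization, and FPKM computed by the authors with StringTie were deposited for the same genes; the read counter and its use of strand are not given in the sources used here. Groups follow the sample labels.

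The main test was that of edgeR 4.0.16 under R 4.3.3 (TMM, filterByExpr, quasi-likelihood F-test on genotype, Benjamini-Hochberg adjustment over 18345 genes) and the script was tested on simulated data. Standard errors come from the F statistic. Near-identical copies were sought by BLAST 2.17.0+ among the transcripts of GENCODE M21, which also gave gene positions, with a minimum identity of 95% and a minimum of 80% of the copy covered. Alternatives were other normalizations and filters, DESeq2 1.42.0, limma 3.58.1 on counts (voom) and on log2(FPKM + pseudocount), the replicate number as a block and each library left out. Summed copies and a striatal covariate were added after seeing the data. Members and gene lists were chosen with earlier results of these data known. Named genes are the members, Lgmn, class or neighbour genes with an adjusted p value under 0.05, a fixed set of main chaperones and factors, and the 5 nearest profiles. Stip1, Tcp1, Hscb, Csnk2b, Bag6, Ehmt2 and Sapcd1 were named after their values were seen. A gene that is counted in the wider classes is not reported by name here.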

Additional observations from a re-analysis of the deposited data

How the results depend on the processing

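The log2 ratio of the Hspa1 pair lay between 2.07 and 2.56 under every alternative run for it, with 2.23 for the replicate block. In the 18 alternatives run for each of the other 8 members, all fold changes stayed positive except that of Hsp90aa1, which lay between -0.012 (without Lgmn+/+-IR replicate 1) and 0.26 with a library left out. The number of calls was less stable. Of those 8 members, the 1 past both thresholds became 0 on log2(FPKM + 0.01), without the filter, with the replicate block, with the striatal covariate and without any 1 library (0 to 0). Their 3 with an adjusted p value under 0.05 became 6 with DESeq2, 5 on log2(FPKM + 1), 1 on log2(FPKM + 0.1), 0 on log2(FPKM + 0.01), 1 without the filter, 0 with the replicate block, 1 with the striatal covariate, and 0 to 2 with a library left out. Of the 78 other genes, the 1 past both thresholds became 2 with DESeq2, with a minimum of 10 counts per library, on log2(FPKM + 0.1) and on log2(FPKM + 0.01), 0 without the filter and 0 to 0 with a library left out. Their 6 with an adjusted p value under 0.05 became 15 with DESeq2, 2 on log2(FPKM + 0.1) and on log2(FPKM + 0.01), 1 with the replicate block and 1 to 5 with a library left out. The 1 neighbour on chromosome 17 past both thresholds became 0 on log2(FPKM + 1), on log2(FPKM + 0.01), with the replicate block and with any library left out (0 to 0). The causes were not tested. Same-numbered libraries did not deviate together (correlations -0.30, -0.05 and -0.05). Deviations from the mean of 3 libraries cannot exclude that the numbers pair the samples.

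With 3 libraries per genotype, adjusted p values near 0.05 decide most of these calls, and a gene that missed the threshold is not shown to be equal between genotypes. The low counts of Hspb3, Msh5 and Sapcd1 limit the precision of their fold changes. The division of reads between Hspa1a and Hspa1b, and between Hspa8 and its copies, depends on a counting rule that the sources do not give.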

Other observations

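These genes were chosen after their values were seen. They do not stand for a group. The endoplasmic reticulum is a compartment whose chaperones answer mainly to the unfolded protein response. Of 6 of its genes, 4 rose and 2 did not pass edgeR's test, against 1.65% of all genes tested that rose. Nothing is read from this count, because the genes were picked by their values. Hspa5, the HSP70 of the endoplasmic reticulum (BiP), had 81.0, 102 and 110 CPM in Lgmn+/+-IR and 157, 183 and 198 CPM in Lgmn-/--IR (log2 fold change 0.87, adjusted p value 0.0225, edgeR). Pdia4, a disulfide isomerase, had 26.4, 30.1 and 27.5 CPM and 66.1, 70.3 and 87.1 CPM (log2 fold change 1.41, adjusted p value 0.00234), which is a larger difference than that of any of the 8 heat shock members beside the Hspa1 pair. The genotypes did not overlap in either gene. Calr, a calcium-binding chaperone (log2 fold change 0.73, adjusted p value 0.0356), and Creld2, a disulfide isomerase (0.82, adjusted p value 0.0063), also passed the test. Hsp90b1, the HSP90 of this compartment (0.57, adjusted p value 0.0532), and Manf, a secreted stress protein (0.72, adjusted p value 0.0876), did not.

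In the other direction, Cirbp and Rbm3, RNA-binding proteins that are induced by mild cold, were lower. Cirbp had 77.1, 76.9 and 74.8 CPM in Lgmn+/+-IR and 48.5, 45.0 and 33.9 CPM in Lgmn-/--IR (log2 fold change -0.84, adjusted p value 0.0237). Rbm3 had 104, 91.0 and 96.0 CPM and 66.0, 64.7 and 54.3 CPM (log2 fold change -0.65, adjusted p value 0.0238). Every knockout library was below every wildtype library for both genes. The third knockout library had the lowest levels of Cirbp and Rbm3 and the highest of Hspa8, Hsph1, Hspb1 and Bag3. Hspa1a, Hspa1b and Dnajb1 were highest in the second knockout library. A link between these levels was not tested.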
